A study of Oryctolagus cuniculus with 6 samples.

Results

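The genes described here are 10 genes of T cell co-stimulation and immune checkpoints, chosen by gene symbol from the 17396 genes listed in each count file of a rabbit facial nerve study. All 10 symbols were found. Of these, 7 encode receptors that T cells carry (CD28, ICOS, CTLA4, PDCD1, LAG3, TIGIT and HAVCR2), and 3 encode ligands that antigen-presenting cells carry (CD80, CD86 and CD274). The study asked how an implanted I-125 seed, a low-energy brachytherapy source, affects an injured facial nerve. The main trunk of the left facial nerve was cut in every animal, all of them wild type male Japanese white rabbits of 3 to 4 months. The FNI group (facial nerve injury, n = 3 libraries) received the transection alone. The FNI+I-125 group (n = 3 libraries) also received a seed of 0.8 mCi near the nerve, and nerves were harvested on day 14. Both groups thus carry the injury, and uninjured nerves were not analysed here.

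A T cell needs a second signal beside its antigen receptor. CD28 gives this signal when it binds CD80 or CD86 on an antigen-presenting cell, and ICOS, a receptor of the CD28 family that appears after activation, gives a related signal through ICOSLG. CTLA4 competes with CD28 for CD80 and CD86 and restrains the response, and PD-1, encoded by PDCD1, does so when it binds PD-L1, encoded by CD274, or PD-L2, encoded by PDCD1LG2. LAG3, TIGIT and TIM-3, encoded by HAVCR2, are further inhibitory receptors of activated T cells, and macrophages and dendritic cells also carry TIM-3. After nerve injury, macrophages enter the nerve to clear myelin debris, and T cells follow in smaller numbers.

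Levels are given as CPM, counts scaled to a common library total after TMM scaling, which corrects for differences in library composition. Where 3 values of a group follow each other, they are those of replicates 1, 2 and 3 in this order, with the FNI group (without the seed) before the FNI+I-125 group (with the seed). Total counts ran from 16031151 to 16798012 per library. The log2 fold changes compare FNI+I-125 with FNI and come from edgeR's quasi-likelihood test fitted to the whole table, with Benjamini-Hochberg adjustment. A gene was called at an adjusted p under 0.05 and a log2 fold change of at least 1.5 in size, the criterion of the study. Only whole-nerve RNA was measured, so a change in the number of cells of a type and a change in RNA per cell cannot be told apart.

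The libraries differed in tissue content, and the part of this in the results was not tested. Schwann cell markers, which define the tissue, were present in all libraries. All 10 of them had a negative log2 fold change, with summed levels of 4460 to 38662 CPM without the seed, highest in replicate 3, and of 854 to 4063 CPM with the seed. Skeletal muscle markers summed to 5506 and 5021 CPM in FNI+I-125 replicates 1 and 2 and to between 31.0 and 110 CPM in the other 4 libraries. Salivary gland markers reached 50303 CPM in FNI replicate 2, against 693 to 3285 CPM elsewhere, and neutrophil markers reached 1201 CPM in FNI+I-125 replicate 1, against 6.44 to 81.0 CPM elsewhere. B cell markers ran from 9.74 to 22.5 CPM in the FNI group and from 23.2 to 36.1 CPM in the FNI+I-125 group, NK cell markers from 0.059 to 0.818 CPM and from 0.528 to 4.2 CPM, and the summed fibroblast and endothelial markers overlapped between the groups.

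All 10 genes had a higher fitted level in the FNI+I-125 group, and none of them was called. For 6 of them, the 3 ligands together with ICOS, CTLA4 and TIGIT, every FNI+I-125 library lay above every FNI library. ICOS was 11.5-fold higher and CD274 3.71-fold higher, and both had an adjusted p of 0.28. LAG3 and HAVCR2 differed least, with overlapping groups. The edgeR test called 0 of 14003 genes higher (0.0% of those tested) and 0 genes lower, and 9.23% of genes had a higher level at an unadjusted p under 0.05. With DESeq2 in place of edgeR, 3 of the 10 genes were called, against 1.69% of genes that DESeq2 called higher. These were ICOS (log2 fold change 3.56, adjusted p = 0.00236), CD274 (1.88, adjusted p = 0.00382) and CD86 (1.59, adjusted p = 0.0493), which thus rose by that test. In DESeq2, CD80 (adjusted p = 0.164), CD28 (0.409), LAG3 (0.522) and HAVCR2 (0.558) did not pass. Run on all genes with a count, DESeq2 called the same 3 of 10 (1.67% of genes higher) and gave 6 of 10, with CD80, CTLA4 and TIGIT added, an unadjusted p under 0.05 (9.81% of genes higher). It gave no adjusted p to CTLA4, PDCD1 and TIGIT.

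**Figure D1:**
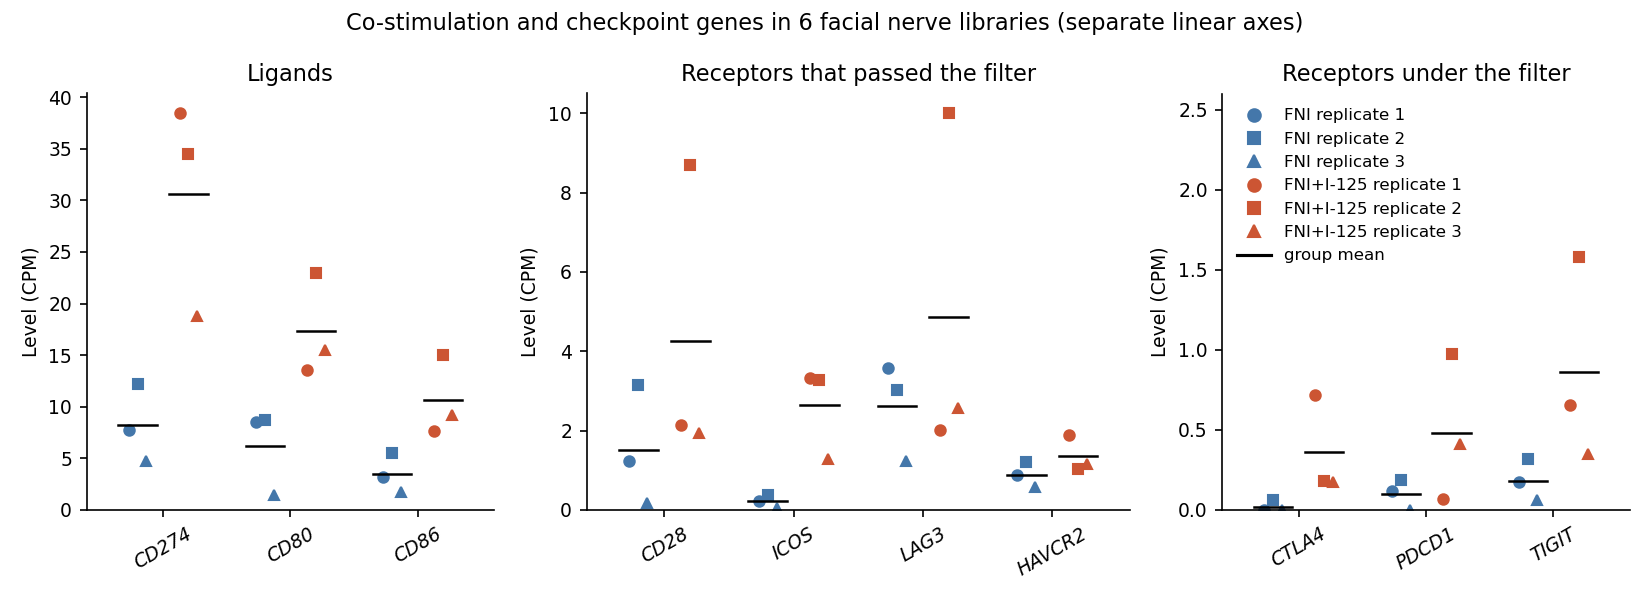
Levels of the 10 genes in CPM (linear vertical axes that differ between panels) in the 3 FNI libraries (blue) and the 3 FNI+I-125 libraries (orange), with the marker shape giving the replicate and the black bar the group mean. For the 3 ligands and for ICOS, CTLA4 and TIGIT, all orange points lie above all blue points, whereas the groups overlap for CD28, LAG3, HAVCR2 and PDCD1.

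3 receptors had counts too low for the filter of the main test, which asked for about 10 counts in at least 3 libraries. These were CTLA4, PDCD1 and TIGIT, and ICOS passed it through its FNI+I-125 libraries alone. CD28 had 21, 50 and 3 counts in the FNI libraries, which alone would not have passed it either. To count all 10 genes on equal terms, the fit was also run on all 17396 genes without the filter. There, 10 of 10 genes had a positive log2 fold change, against 50.1% of all genes, and 5 of 10 (ICOS, CD274, CD86, CTLA4 and TIGIT) had an unadjusted p under 0.05 with a higher level, against 7.61% of all genes. Groups without overlap and with a higher FNI+I-125 level were found for 6 of 10 genes and for 12.7% of all genes. For these 6 genes a two-sided exact permutation test on log2(CPM + 1) gave p = 0.1, the smallest that 3 against 3 libraries allow, and for the other 4 it gave 0.3 to 0.6. The median log2 fold change of the 10 genes was 1.73, and that of all genes was 0.0. The 10 genes were chosen with earlier results of these data known, so these shares are a description alone.

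Among the ligands, CD274 stood at 7.78, 12.2 and 4.72 CPM without the seed and at 38.5, 34.5 and 18.8 CPM with it. The lowest FNI+I-125 library was thus above the highest FNI library. CD274 encodes PD-L1, which many cell types produce under interferon gamma. Its group means were 8.24 ± 3.76 CPM (SD, n = 3) and 30.6 ± 10.4 CPM (SD, n = 3), a log2 fold change of 1.89 (standard error 0.43, unadjusted p = 0.00476 in edgeR's test). Leaving out 1 library at a time gave CD274 a log2 fold change between 1.6 and 2.29, and its unadjusted p stayed under 0.05 in 6 of 6 fits.

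CD86, one of the 2 ligands of CD28 and CTLA4, stood at 3.22, 5.54 and 1.71 CPM without the seed and at 7.64, 15 and 9.21 CPM with the seed. The groups did not overlap, and FNI+I-125 replicate 2 was the highest. Means were 3.49 ± 1.93 and 10.6 ± 3.85 CPM (SD, n = 3 each), and the log2 fold change of CD86 was 1.6 (standard error 0.5, unadjusted p = 0.0181, adjusted p = 0.28 in edgeR's test). The unadjusted p of CD86 exceeded 0.05 without FNI replicate 1 (0.0577) and without FNI+I-125 replicate 2 (0.0673).

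CD80, the other ligand of this pair, stood at 8.54, 8.75 and 1.42 CPM against 13.6, 23.0 and 15.5 CPM. FNI replicate 3 lay far below the other FNI libraries, and the groups did not overlap. CD80 had a log2 fold change of 1.48 (standard error 0.66, unadjusted p = 0.0667 in edgeR's test), and it was 0.99 without FNI replicate 3, where the unadjusted p was 0.0181. CD80 was set beside CD86 after their values had been seen. It had 265, 158 and 82.8 counts per 100 counts of CD86 without the seed and 179, 154 and 168 with the seed. The ratio between these 2 genes thus varied more among FNI libraries than between the groups, and all FNI+I-125 values lay within the FNI range.

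Of the activating receptors, ICOS had the smallest p-value of the 10 genes. It had 4, 6 and 1 counts without the seed and 51, 54 and 22 counts with the seed, or 0.234, 0.378 and 0.059 CPM against 3.33, 3.28 and 1.29 CPM. All 3 FNI libraries were close to no signal, and the lowest FNI+I-125 library held more than 3 times the count of the highest FNI library. In the unfiltered fit ICOS had a log2 fold change of 3.51 (standard error 0.78, unadjusted p = 0.00357 in edgeR's test). It ran from 3.06 to 4.1 in the unfiltered fits with each library left out, with an unadjusted p under 0.05 in 6 of 6.

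CD28, the receptor that resting T cells already carry, stood at 1.23, 3.15 and 0.177 CPM against 2.15, 8.69 and 1.94 CPM. FNI replicate 2 lay above FNI+I-125 replicates 1 and 3, so the groups overlapped. The log2 fold change of CD28 was 1.49 (standard error 1.06, unadjusted p = 0.208 in edgeR's test). It was 0.41 without FNI+I-125 replicate 2 and 2.58 without FNI replicate 2. The ratio of these 2 receptors was taken after their values had been seen. ICOS had 19.0, 12.0 and 33.3 counts per 100 counts of CD28 without the seed and 155, 37.8 and 66.7 with it. The groups did not overlap in this ratio, although the FNI value of 33.3 rests on 1 count of ICOS and 3 counts of CD28.

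Of the inhibitory receptors, CTLA4, TIGIT and PDCD1 had few counts, and LAG3 and HAVCR2 were better measured and overlapped between the groups. CTLA4 had 0, 1 and 0 counts without the seed and 11, 3 and 3 counts with the seed. A count of 0 allows up to 3 counts, so FNI+I-125 replicates 2 and 3 stand at the limit of detection. Summed over libraries, the rate of CTLA4 counts was 17.1 times as high in the FNI+I-125 group (17 counts against 1), with an exact 95% interval of 2.69 to 716 that covers counting error alone. In the unfiltered fit its log2 fold change was 3.69 (standard error 1.31, unadjusted p = 0.0283 in edgeR's test), and the unadjusted p stayed under 0.05 in 3 of 6 fits with a library left out. Without FNI replicate 1 it was 0.0815, without FNI replicate 3 it was 0.0736, and without FNI+I-125 replicate 1 it was 0.104. The log2 fold change of CTLA4 ran from 2.75, without FNI+I-125 replicate 1, to 5.6, without FNI replicate 2.

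TIGIT, which binds PVR and NECTIN2 on antigen-presenting and tissue cells, had 3, 5 and 1 counts against 10, 26 and 6 counts. The groups did not overlap, by a margin of 1 count. The rate ratio of TIGIT counts was 4.7 (exact 95% interval 2.26 to 11, counting error alone), and the log2 fold change in the unfiltered fit was 2.19 (standard error 0.9, unadjusted p = 0.0484 in edgeR's test). This p-value of TIGIT stayed under 0.05 in 2 of 6 fits with a library left out, those without FNI replicate 2 and without FNI+I-125 replicate 3, and reached 0.201 without FNI+I-125 replicate 2, where the log2 fold change was 1.4. PDCD1 had 2, 3 and 0 counts against 1, 16 and 7 counts. FNI+I-125 replicate 1 lay within the FNI range, and FNI+I-125 replicate 2 held most of the signal. The log2 fold change of PDCD1 in the unfiltered fit was 2.17 (standard error 1.29, unadjusted p = 0.141 in edgeR's test), or 1.15 without FNI+I-125 replicate 2.

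LAG3, a receptor for MHC class II molecules, stood at 3.57, 3.02 and 1.24 CPM without the seed and at 2.02, 10 and 2.58 CPM with the seed. FNI+I-125 replicate 2 stood alone, and the other FNI+I-125 libraries lay below FNI replicates 1 and 2. For LAG3 the log2 fold change was 0.9 (standard error 0.75, unadjusted p = 0.272 in edgeR's test), and without FNI+I-125 replicate 2 it was -0.21. HAVCR2 stood at 0.878, 1.2 and 0.59 CPM against 1.89, 1.03 and 1.17 CPM, with overlapping groups and a log2 fold change of 0.62 (standard error 0.47, unadjusted p = 0.232 in edgeR's test).

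**Figure D2:**
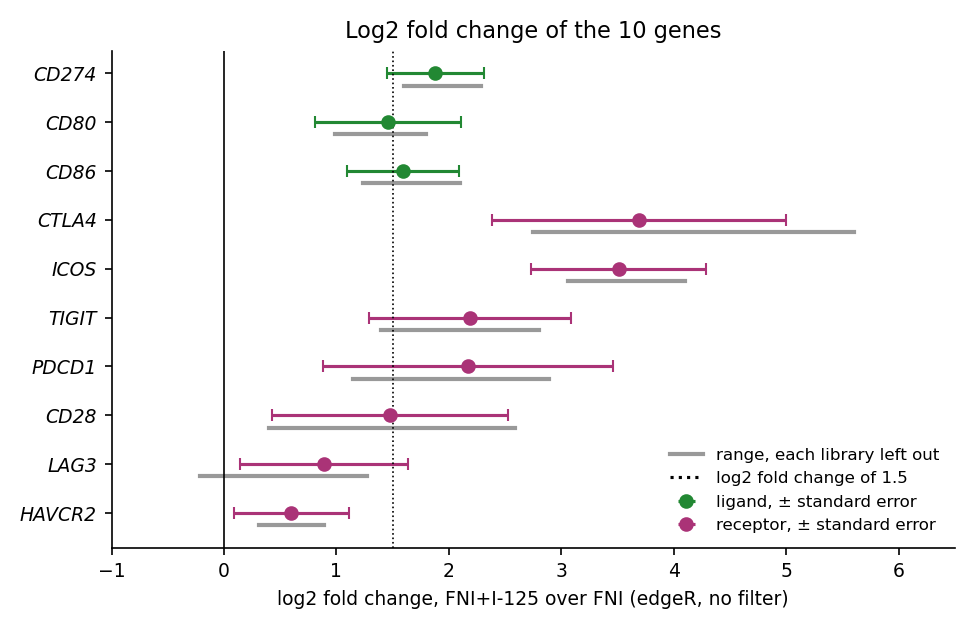
Log2 fold change of the 10 genes, FNI+I-125 over FNI, from edgeR's fit without a filter on low counts, with the standard error as a bar and, in grey, the range when each library is left out in turn. Ligands (green) lie between 1.46 and 1.88 and receptors (purple) between 0.6 and 3.69, and the grey range reaches below 0 for LAG3.

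The 3 ligands thus differed by similar amounts, whereas the 7 receptors spread widely. In the unfiltered fit the ligands had a median log2 fold change of 1.59, from 1.46 to 1.88, and all 3 had groups without overlap. The receptors had a median of 2.17, from 0.6 to 3.69, and 3 of 7 had groups without overlap. The share of all genes with such groups and a higher level with the seed was 12.7%. Of these 3 receptors, CTLA4 and TIGIT rest on few counts. CTLA4 had 0, 1 and 0 counts against 11, 3 and 3. TIGIT had 5 counts in its highest FNI library and 6 in its lowest FNI+I-125 library. The order of the classes depends on the scale. On the scale of log2(CPM + 1), which damps genes with few counts, the mean of the ligands was 2.82, 3.24 and 1.74 without the seed and 4.1, 4.58 and 3.9 with the seed, a difference of 1.59. The mean of the receptors was 0.71, 0.91 and 0.32 against 1.21, 1.78 and 0.98, a difference of 0.68. No test was made over the classes, and levels of different genes were not compared, since transcript lengths were not used.

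The 3 ligands gave 133 to 421 counts per FNI library and 742 to 1192 counts per FNI+I-125 library, and the 7 receptors gave 36 to 132 counts and 135 to 424 counts. FNI replicate 3 was the lowest FNI library for 10 of 10 genes, with a tie for CTLA4. FNI+I-125 replicate 2 was the highest for 6 genes (PDCD1, CD28, LAG3, TIGIT, CD80 and CD86), and FNI+I-125 replicate 1 for the other 4 (CTLA4, ICOS, HAVCR2 and CD274). Without FNI replicate 3, the median log2 fold change was 1.61 for the receptors and 1.26 for the ligands, and 4 of 10 genes had an unadjusted p under 0.05 in the unfiltered fit. Without FNI+I-125 replicate 2, the receptors stood at 1.15 and the ligands at 1.24, with 3 of 10 genes under 0.05. In each of the 6 fits that left out a library, at least 9 of the 10 genes had a positive log2 fold change. The shares over all genes were not computed for these fits, so their counts are not set against all genes.

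Receptors were next set beside the T cell gene CD3E, and ligands beside the macrophage gene CSF1R, in the same library. CD3E, a chain of the T cell receptor complex, stood at 2.11, 4.47 and 0.649 CPM without the seed and at 5.68, 11 and 3.28 CPM with the seed, with a log2 fold change of 1.47 (standard error 0.77, unadjusted p = 0.106 in edgeR's test). FNI replicate 2 lay above FNI+I-125 replicate 3 in the level of CD3E. ICOS had 11.1, 8.45 and 9.09 counts per 100 counts of CD3E without the seed and 58.6, 29.8 and 39.3 with the seed. All FNI+I-125 values were above the FNI values, which rest on 4, 6 and 1 counts of ICOS, so that their closeness carries little weight. On a log2 scale with 0.5 added to each count, an alternative chosen after the data were seen, the ratio of ICOS to CD3E was -3.14 ± 0.28 (SD) in the FNI group and -1.28 ± 0.49 (SD) in the FNI+I-125 group (exact permutation test, two-sided, p = 0.1, the smallest that 3 against 3 libraries allow).

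The planned ratio added 1 CPM to both genes, and on that scale the ICOS values overlapped (difference 0.31, exact permutation test, p = 0.6, adjusted p = 0.667 over 10 ratios). With ICOS below 1 CPM in all FNI libraries, the added 1 CPM makes up most of its FNI value. CD28 had 58.3, 70.4 and 27.3 counts per 100 counts of CD3E without the seed against 37.9, 79.0 and 58.9, and LAG3 had 169, 67.6 and 191 against 35.6, 91.2 and 78.6. Both overlapped between the groups, and LAG3 had its highest values in FNI libraries. TIGIT had 8.33, 7.04 and 9.09 counts per 100 counts of CD3E against 11.5, 14.4 and 10.7, and HAVCR2 had 41.7, 26.8 and 90.9 against 33.3, 9.39 and 35.7. In these counts TIGIT was higher without overlap, although its FNI value of 9.09 rests on 1 count of TIGIT and 11 counts of CD3E. On the planned scale TIGIT overlapped between the groups, with a difference of -0.6 (exact permutation test, p = 0.3). The range of HAVCR2 reached lower in the FNI+I-125 group. On the planned scale the adjusted p over the 10 ratios was 0.429 or more for every gene, by exact permutation tests that cannot give an unadjusted p below 0.1. The receptor ratios depend on the T cell gene. On that scale CD28, LAG3 and HAVCR2 differed by -0.19, -0.69 and -0.88 relative to CD3E. Relative to CD3D, which had 9, 28 and 1 counts without the seed, they differed by 0.4, -0.1 and -0.29. ICOS and TIGIT differed by 0.91 and -0.01 relative to CD3D.

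CSF1R, the receptor for a macrophage growth factor, stood at 219, 275 and 77.1 CPM against 336, 345 and 297 CPM, without overlap and with a log2 fold change of 0.77 (standard error 0.45, unadjusted p = 0.133 in edgeR's test). CD274 had 3.55, 4.44 and 6.13 counts per 100 counts of CSF1R without the seed and 11.5, 9.99 and 6.34 with the seed. CD80 had 3.9, 3.18 and 1.84 against 4.06, 6.68 and 5.21, and CD86 had 1.47, 2.01 and 2.22 against 2.27, 4.34 and 3.1. In these counts, all 3 ratios had their 3 higher values with the seed, without overlap and with margins that were small for each gene. On the planned scale, the log2 ratio to CSF1R differed by 0.84 for CD274, 0.61 for CD80 and 0.45 for CD86 (exact permutation test, p = 0.2, 0.1 and 0.3). There the groups overlapped for CD274 and CD86 and did not overlap for CD80. These ratios depend on the macrophage gene. Relative to AIF1, another macrophage marker, with a log2 fold change of 1.21, they differed by 0.4 for CD274, 0.16 for CD80 and 0.01 for CD86 (exact permutation test, p = 0.4, 0.6 and 1.0).

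**Figure D3:**
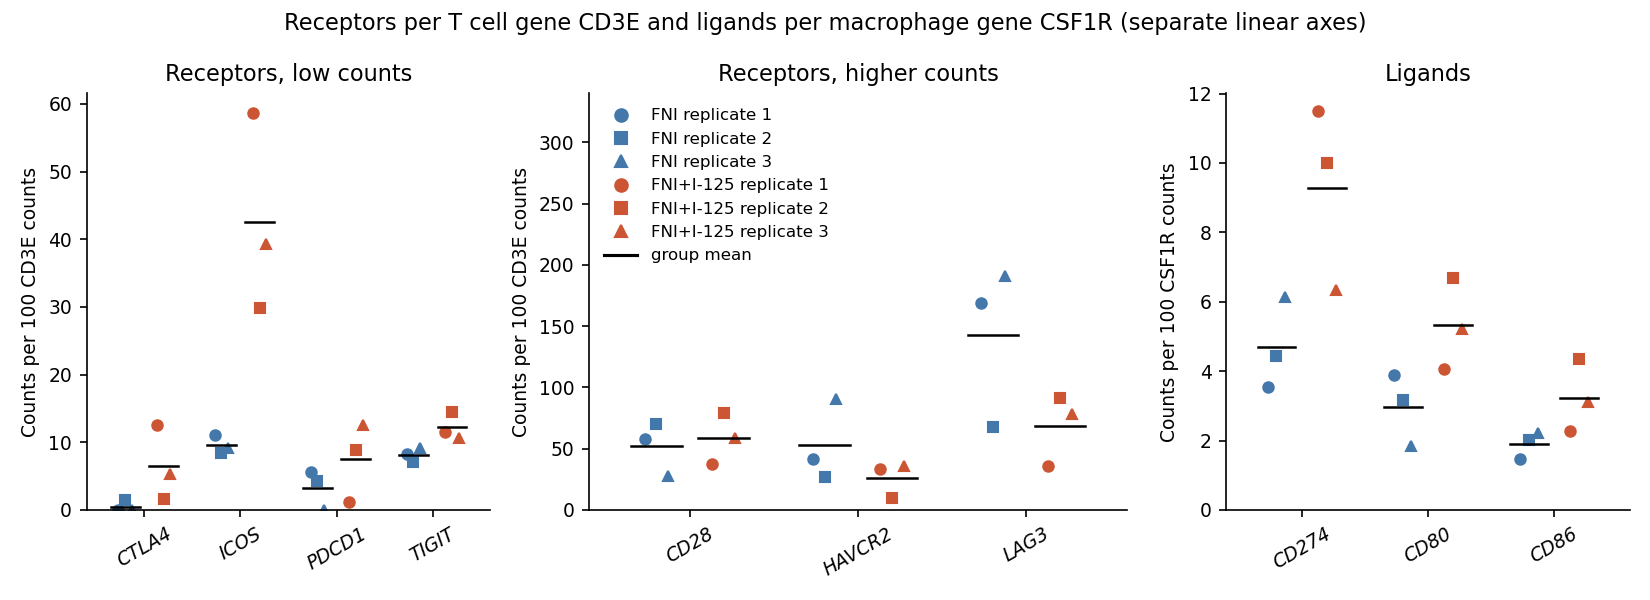
Counts of each receptor per 100 counts of CD3E, and of each ligand per 100 counts of CSF1R, in each library (linear vertical axes that differ between panels), with the black bar giving the group mean. ICOS ranges from 8.45 to 11.1 without the seed and from 29.8 to 58.6 with the seed, while CD28, LAG3 and HAVCR2 overlap between the groups.

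The other genes of the pathway were taken from lists of 61 further receptors, ligands and signalling proteins, of which 47 were in the files by symbol and 43 were tested. None was called, 37 of the 43 had a positive log2 fold change, against 51.1% of the genes tested, and 16 had an unadjusted p under 0.05 with a higher level, against 9.23%. None had such a p with a lower level, against 7.73%. The median log2 fold change of the 43 genes was 1.31, and that of all genes tested was 0.01. Some of the 43, such as PDCD1LG2, would not have passed the filter by their FNI libraries. In the unfiltered fit, 41 of all 47 genes had a positive log2 fold change (50.1% of all genes) and 16 a higher level at an unadjusted p under 0.05 (7.61%), with a median of 1.37.

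Among the partners that bind the 10 genes, PDCD1LG2, the second ligand of PD-1, stood at 0.117, 1.13 and 0 CPM against 1.18, 11.2 and 3.99 CPM. The highest FNI library lay just below the lowest FNI+I-125 library. PDCD1LG2 had 2, 18 and 0 counts against 18, 185 and 68 counts, so that its FNI libraries alone would not have passed the filter. In the unfiltered fit its log2 fold change was 3.7 (standard error 1.46, unadjusted p = 0.0425 in edgeR's test), and it ran from 2.59 without FNI+I-125 replicate 2 to 6.37 without FNI replicate 2. PVR, the ligand that TIGIT and CD226 share, stood at 8.78, 10.6 and 6.55 CPM against 33.6, 20.4 and 15.4 CPM, without overlap (log2 fold change 1.42, standard error 0.35, unadjusted p = 0.00646 in edgeR's test). NECTIN2, which binds TIGIT as well, stood at 27.3, 19.6 and 23.0 CPM against 14.3, 14.2 and 25.4 CPM, with overlap and a log2 fold change of -0.38 (standard error 0.28, unadjusted p = 0.234 in the same test).

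CD226, the activating receptor that competes with TIGIT for PVR, stood at 1.29, 1.82 and 0.354 CPM against 5.48, 4.26 and 2.58 CPM. These groups did not overlap, but the FNI libraries of CD226 alone would not have passed the filter. In the unfiltered fit its log2 fold change was 1.81 (standard error 0.66, unadjusted p = 0.0311 in edgeR's test). CD96, a further receptor for PVR, had an unfiltered log2 fold change of 1.3 (standard error 1.09, unadjusted p = 0.277 in that test). It was -0.45 at the lowest with a library left out. LGALS9 encodes galectin-9, a ligand of TIM-3, and stood at 26.0, 12.0 and 6.2 CPM against 23.0, 82.4 and 66.5 CPM. FNI+I-125 replicate 1 fell within the FNI range, and the log2 fold change of LGALS9 was 1.96 (standard error 0.67, unadjusted p = 0.027 in edgeR's test), or 2.66 without FNI replicate 1. ICOSLG and FGL1, ligands of ICOS and LAG3, were not analysed here.

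By role, the other receptors were counted in the unfiltered fit. TNFRSF9, CD226, CD27, CD244 and CD200R1 would not have passed the filter by their FNI libraries. Of 9 stimulatory receptors, 8 had a positive log2 fold change, and 2 of them, TNFRSF9 and CD226, had an unadjusted p under 0.05. Beside the counts of both kinds of receptor, 50.1% of all genes had a positive log2 fold change and 7.61% a higher level at such a p. TNFRSF9, known as 4-1BB and carried by activated T cells, stood at 0.878, 0.566 and 0.767 CPM against 1.63, 2.61 and 1.94 CPM (unfiltered log2 fold change 1.46, standard error 0.45). Among the tested genes of this list, CD27 had the next smallest p (0.111 in edgeR's unfiltered test). Its log2 fold change was 1.7, or 0.75 without FNI+I-125 replicate 2. Of the inhibitory receptors, 6 of 7 had a positive log2 fold change in the unfiltered fit and 3 an unadjusted p under 0.05. These were CD244 (log2 fold change 2.84, standard error 0.84), CD200R1 (1.79, standard error 0.7) and CD5 (1.88, standard error 0.77). For CD5 the log2 fold change was 1.25 without FNI+I-125 replicate 2, and the unadjusted p in edgeR's unfiltered test reached 0.174 with a library left out. CD244, a receptor for CD48 on NK and T cells, had 16.4 CPM in FNI+I-125 replicate 1, and its log2 fold change without that library was 2.01.

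Of the other ligands and checkpoint enzymes, 13 of 16 had a positive log2 fold change and 6 an unadjusted p under 0.05 with a higher level. The shares over all genes tested, for this list and for the signalling proteins that follow, were 51.1% and 9.23%. Without the filter, 14 of 17 ligands and enzymes had a positive log2 fold change and 6 such a p, against 50.1% and 7.61% of all genes. CD40, through which helper T cells activate antigen-presenting cells, stood at 8.01, 9.88 and 6.97 CPM against 19.3, 17.5 and 13.4 CPM (log2 fold change 1.01, standard error 0.23, unadjusted p = 0.00417 in edgeR's test). IDO1, an enzyme that breaks down tryptophan and restrains T cells, stood at 4.74, 5.85 and 1.24 CPM against 236, 6.26 and 26.9 CPM. FNI+I-125 replicate 1 held most of its signal, and the log2 fold change of 4.51 (standard error 1.46) was 2.07 without this library. Of the signalling proteins below CD28 and PD-1, 12 of 13 had a positive log2 fold change and 5 an unadjusted p under 0.05. PTPN22, a phosphatase that dampens T cell receptor signalling, led them at 3.28, 3.96 and 1.48 CPM against 11, 14.0 and 9.73 CPM (log2 fold change 1.99, standard error 0.41, unadjusted p = 0.00273 in edgeR's test). LCP2 (2.28, standard error 0.73) and PTPN6 (1.69, standard error 0.62), an adaptor and a phosphatase of immune cells, followed, and LCP2 stood at 1.58 without FNI+I-125 replicate 1. PTPN11, the phosphatase SHP2 that PD-1 recruits and that most cells make, stood at 141, 143 and 141 CPM against 155, 172 and 153 CPM, and is named after its value was seen.

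**Figure D4:**
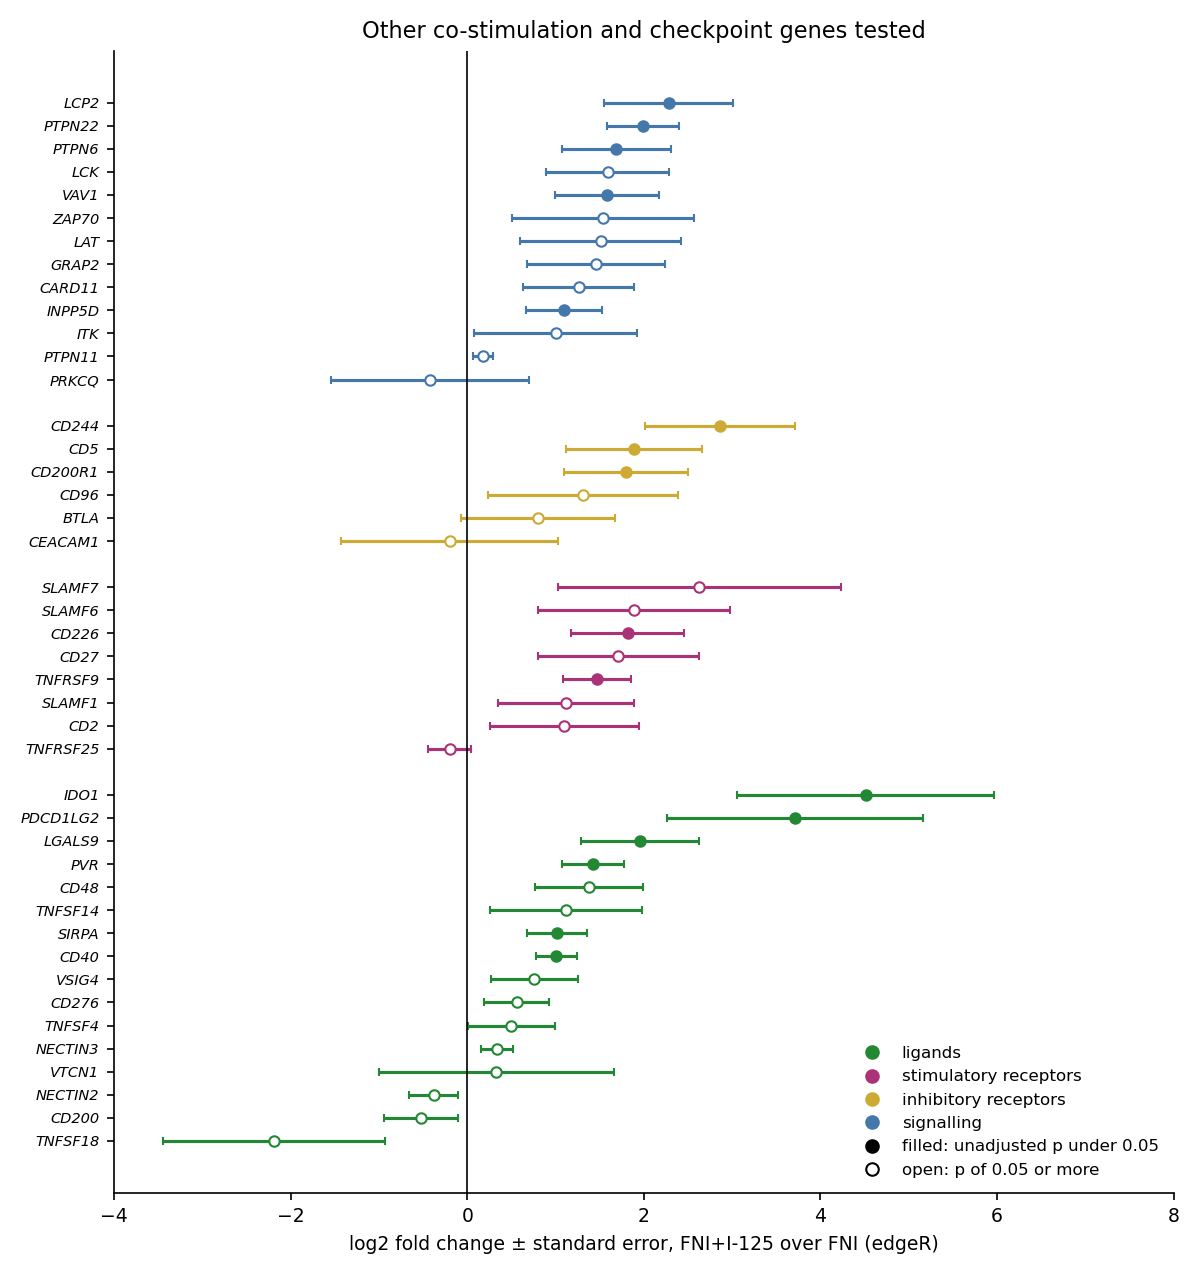
Log2 fold change with standard error, FNI+I-125 over FNI, of the 43 other co-stimulation and checkpoint genes tested with edgeR, grouped by role, with filled points for an unadjusted p under 0.05. The 16 filled points all lie to the right of 0, from CD40 and SIRPA near 1.01 to IDO1 at 4.51.

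Markers of the cells that carry these genes mostly had a positive log2 fold change as well, with no gene called, and their part in the results was not tested. In the unfiltered fit all 10 T cell markers had a positive log2 fold change, with a median of 1.51, and 0 of 10 had an unadjusted p under 0.05. Over all genes, 50.1% had a positive log2 fold change there and 7.61% a higher level at such a p. The summed level of the 10 T cell markers ran from 7.08 to 24.9 CPM without the seed and from 19.1 to 59.5 CPM with the seed, so these ranges overlapped. FNI replicate 3 held the least and FNI+I-125 replicate 2 the most. Of the regulatory and helper T cell markers, 6 of 6 had a positive log2 fold change (51.1% of genes tested), with a median of 0.74. FOXP3, the factor that defines regulatory T cells, which carry CTLA4 constitutively, stood at 0.936, 2.96 and 0.295 CPM against 1.24, 2.68 and 3.4 CPM, with overlap (log2 fold change 0.81, standard error 0.85, unadjusted p = 0.379 in edgeR's test). FOXP3 reached 1.97 without FNI replicate 2 and 0.31 without FNI replicate 3 on that scale. IL2RA, a receptor chain of regulatory and activated T cells, had 6, 7 and 3 counts against 33, 15 and 15 counts and thus passed the filter through its FNI+I-125 libraries alone. In the unfiltered fit its log2 fold change was 1.98 (standard error 0.66, unadjusted p = 0.0224 in edgeR's test). BCL6, a factor of follicular helper T cells and the most abundant of the list, had a log2 fold change of 0.15. The summed level of this list ran from 99.5 to 145 CPM and from 97.9 to 163 CPM.

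Of the T cell activation and exhaustion genes, 6 of 8 tested had a positive log2 fold change (51.1% of all genes tested), with a median of 0.81. TBX21, the factor of type 1 helper T cells, stood at 0.585, 1.2 and 0.413 CPM against 3.59, 5.65 and 1.52 CPM. Its FNI libraries alone would not have passed the filter. In the unfiltered fit the log2 fold change of TBX21 was 2.28 (standard error 0.68, unadjusted p = 0.0139 in edgeR's test). NR4A1, the most abundant of the list, had a log2 fold change of 0.17. IFNG, which encodes interferon gamma, was at 0 counts without the seed throughout and reached 6, 15 and 2 counts with it, of which the last is under the 3 counts that a count of 0 allows. Of the interferon-gamma response genes, 10 of 10 had a positive log2 fold change (51.1% of all genes tested), with a median of 1.33. A higher level at an unadjusted p under 0.05 was found for 6 of the 10 (9.23% of all genes tested). TAP1, a peptide transporter for antigen presentation, had a log2 fold change of 1.52 (standard error 0.31). The summed level of the response genes ran from 250 to 383 CPM without the seed and from 460 to 830 CPM with the seed, without overlap.

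All 10 tested macrophage markers had a positive log2 fold change (51.1% of all genes tested), with a median of 1.43. A higher level at an unadjusted p under 0.05 was found for 3 of them (9.23% of all genes tested). The summed level of the 11 macrophage markers ran from 214 to 856 CPM without the seed and from 1143 to 1641 CPM with the seed, without overlap. SPI1, the factor that drives myeloid development, stood at 16.8, 25.2 and 5.14 CPM against 59.5, 80.6 and 55.1 CPM, with a log2 fold change of 2.05 (standard error 0.56, unadjusted p = 0.0103 in edgeR's test). In the unfiltered fit the dendritic cell markers had 7 of 9 positive log2 fold changes (50.1% of all genes) and a median of 1.94. There, 4 were higher at an unadjusted p under 0.05 (7.61% of all genes). ZBTB46 was lower at such a p, with a log2 fold change of -0.65, and is named after its value was seen. Some of the 4 higher genes, such as LAMP3, would not have passed the filter by their FNI libraries. LAMP3, a marker of mature dendritic cells, stood at 0.702, 0.315 and 0.059 CPM against 3.92, 2.07 and 1.29 CPM, and ITGAX, the most abundant of the list, at 16.7, 30.3 and 0.767 CPM against 47.7, 184 and 122 CPM. The summed dendritic cell level ran from 18.7 to 82.2 CPM and from 108 to 335 CPM.

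Across the 6 libraries, the gene most like ICOS by Pearson's r of log2(CPM + 1) was PTPN1 (r = 0.998), followed by RAP1B (0.997), PSME4 (0.995), LOC100349893 (0.993) and SAMD15 (0.993), among 13551 genes with a mean of at least 1 CPM. For CD274 these were LOC100343767 (r = 0.999), ADAM8 (0.996), MFHAS1 (0.996), NFKBIE (0.996) and CD40 (0.994). CD274 and ICOS had an r of 0.974 with each other, the highest of either gene with another of the 10. With 6 libraries, 2 group levels and a search over all genes, these values are a description of likeness alone. In RefSeq's gene table of rabbit assembly mOryCun1.1, CTLA4 lies between ICOS and CD28 with 0 protein-coding genes between neighbours, and the 3 adjacent genes had log2 fold changes of 3.51, 3.69 and 1.48 in the unfiltered fit.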

How the data were processed

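The authors deposited 1 table of raw read counts per gene for each of 6 libraries (TruSeq Stranded mRNA kit, Illumina paired-end reads). The submitters' processing notes name HISAT2 and OryCun2.0, while the counting program and annotation are not given in the sources used here. The test used edgeR 4.0.16 in R 4.3.3 (filterByExpr with a minimum count of 10, TMM, glmQLFit, glmQLFTest) on 14003 of 17396 genes. FNI+I-125 was compared with FNI without covariates and called at the study's thresholds, whose test is not named in the sources used here. DESeq2 1.42.0, limma 3.58.1 (voom), other filters and scalings, left-out libraries and a replicate block were the alternatives. Ratios were tested with exact permutation tests. Of 2992 LOC identifiers, 542 were given a symbol from RefSeq's table of mOryCun1.1, IL2RA and ZBTB46 among them. The 25 rows named by a spreadsheet date (0.188% of counts) kept no gene name. The statistics were tested on simulated data.

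The 10 genes and all lists were chosen with earlier results of these data known. Named beside them were the 3 genes with the smallest p of each pathway list, direct binding partners, the most abundant and the smallest-p gene of the T cell, macrophage, dendritic cell and response lists, CD3E, CSF1R, FOXP3 and IFNG. For the other marker lists, covered by the same rule, summed levels alone are given. A gene that this rule names is not reported here.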

Additional observations from a re-analysis of the deposited data

How the results depend on the processing

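All 10 genes are limited by 3 libraries per group and a biological coefficient of variation of 43%, and CTLA4, PDCD1 and TIGIT also by counts. Genes called numbered 0 in edgeR's fit, 399 with DESeq2 and 0 to 40 with each library left out, the 40 being without FNI+I-125 replicate 3. Of the 10 genes, edgeR called 0 and DESeq2 3, with or without the filter on low counts (the unfiltered DESeq2 fit was chosen after the data were seen). Genes of the 10 at an unadjusted p under 0.05 numbered 3 with the filter, 5 without it and 6 with unfiltered DESeq2. Over all genes, 9.23%, 7.61% and 9.81% had a higher level at such a p in these 3 fits. The number was 4 with voom and 2 where 10 counts were required in every library. With each library left out it was 2 to 4 with the filter and 2 to 5 without it. For voom, the stricter filter and the left-out libraries, the share over all genes was not computed. With each library left out, the log2 fold change of LAG3 ran from -0.21, without FNI+I-125 replicate 2, to 1.27, with and without the filter, and its difference in mean log2(CPM + 1) from -0.07 to 0.86. Relative to AIF1 in place of CSF1R, the log2 ratios of CD274, CD80 and CD86 differed by 0.4, 0.16 and 0.01. Log2 ratios changed sign for CD28 (0.4 relative to CD3D, and -0.36 to 0.03 with each library left out, the latter without FNI+I-125 replicate 1), for ICOS (-0.02 to 0.65, the former without FNI replicate 2) and, with 0.5 added to each count in place of 1 CPM, for CD28 (0.17), PDCD1 (0.17), CTLA4 (1.22) and TIGIT (0.36). In these the added 1 CPM exceeds the level of the last 3 genes in most libraries.

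Replicate numbers were not treated as pairs, since the sources used here state no pairing of animals. Deviations of same-numbered libraries correlated at 0.052, -0.191 and -0.137, and those of other pairs of libraries at -0.293 to 0.305. With 3 libraries per group, these values cannot decide whether animals were paired. With the replicate number as a block, the log2 fold changes were 3.64 for ICOS and 1.93 for CD274, 0 genes of the 10 were called, and no call changed. An unadjusted p under 0.05 was found for 3 of the 10, and the share over all genes was not computed in that fit.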
